A study of Mus musculus with 6 samples.

Results

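The outer dense fibre proteins and the protein of the mitochondrial capsule were followed through 9 genes, Odf1, Odf2, Odf3, Odf4, Odf2l, Odf3l1, Odf3l2, Odf3b and Smcp. They were chosen by gene symbol, and a probe set was used only where it carried exactly 1 gene symbol. All 9 of 9 were measured, with 90 of the 269751 probe sets, among 23152 genes in all. Expression was measured on 6 Mouse Gene 2.0 ST arrays of RNA from enzymatically isolated testicular germ cells of 23 dpp (days post partum) males on the FVB background. The 3 control arrays carried RNA of Mgat1[F/F] males, whose Mgat1 gene is flanked by loxP sites but which lack a Cre. The 3 Mgat1 cKO arrays carried RNA of Mgat1[F/F]:Stra8-iCre males, in which the Stra8 promoter drives iCre in spermatogonia and the gene for GlcNAcT-I, the enzyme that begins complex N-glycans, is deleted. For each genotype, germ cell RNA of 6 mice was combined into 1 pool, of which 3 aliquots were hybridized. Their spread and every p-value therefore cover aliquots of a pool and not mice, and genotype and pool cannot be told apart.

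Outer dense fibres are stiff, cysteine-rich rods that run along the outside of the axonemal doublets in the sperm tail. In the midpiece they are wrapped by a sheath of mitochondria whose outer surface is covered by a keratin-like capsule, of which Smcp (sperm mitochondria-associated cysteine-rich protein) is a component. The fibres and the sheath are assembled as spermatids elongate, and in mice the Smcp transcript is made in round spermatids and stored before it is translated. Not every gene with the name belongs to the fibre. Odf2 and Odf2l also code for proteins of centrioles and basal bodies, and Odf3 and its relatives Odf3b, Odf3l1 and Odf3l2 code for proteins with repeats of the SHIPPO type.

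The bases before the RefSeq start sites (GRCm38.p6) of 3 members that rose and of 1 with a difference near 0 are shown for comparison, because only some members of the group moved together. Each runs 5′ to 3′ along the strand of its gene over 250 bases, and capitals mark matches to the motifs searched. No window was used for Odf1 and Odf3l2.
Smcp, chr3:92589074-92589323, minus strand: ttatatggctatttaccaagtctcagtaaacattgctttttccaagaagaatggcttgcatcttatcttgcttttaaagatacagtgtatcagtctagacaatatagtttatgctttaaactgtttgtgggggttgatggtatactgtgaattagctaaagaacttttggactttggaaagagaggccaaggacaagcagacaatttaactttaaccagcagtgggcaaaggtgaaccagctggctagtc
Odf3, chr7:140847666-140847915, plus strand: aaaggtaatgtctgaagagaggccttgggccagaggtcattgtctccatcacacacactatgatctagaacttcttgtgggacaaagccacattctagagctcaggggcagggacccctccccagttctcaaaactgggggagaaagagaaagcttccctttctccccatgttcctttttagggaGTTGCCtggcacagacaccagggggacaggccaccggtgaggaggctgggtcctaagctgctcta
Odf3l1, chr9:56853815-56854064, minus strand: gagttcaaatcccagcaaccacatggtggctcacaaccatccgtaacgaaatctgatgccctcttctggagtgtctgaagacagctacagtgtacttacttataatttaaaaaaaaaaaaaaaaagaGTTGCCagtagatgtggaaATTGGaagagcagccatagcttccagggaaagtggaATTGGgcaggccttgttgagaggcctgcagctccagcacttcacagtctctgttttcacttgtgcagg
Odf4, chr11:68927082-68927331, minus strand: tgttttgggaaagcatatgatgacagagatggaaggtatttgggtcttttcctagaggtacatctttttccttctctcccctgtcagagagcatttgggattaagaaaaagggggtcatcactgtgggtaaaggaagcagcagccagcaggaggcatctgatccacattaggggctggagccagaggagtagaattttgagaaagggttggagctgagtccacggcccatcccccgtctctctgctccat

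In all, 5 motifs were searched on both strands of windows that reach from 250 bases before to 50 bases after a start site. The background was 32851 such windows of mouse genes. The cAMP response element, spelled TGACGTCA, was held by 1.79% of them. Its shorter form TGACG, which lies inside it, was held by 20.8%. A TATA box, searched as TATAAA, was held by 13.6%. The short RFX motif GTTGCC was held by 12.5%, and the CCAAT box by 37.4%. The RFX motif and the CCAAT box were added to the search after the members' windows had been read, so that their matches are a description only. The RFX motif was matched in the window of Odf3 and in both windows of Odf3l1, which has 2 annotated start sites there. The CCAAT box was matched in the windows of Odf3l1, but also in those of Odf2 and Odf2l, which did not pass the test below. The shorter form of the cAMP response element was matched only in windows of Odf2, and its full form and the TATA box in no member's window. The windows of Smcp, Odf4 and Odf3b held none of the 5 motifs. A match is not a site of binding, and the lack of one says only that these letters are not in this window.

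Of the 9 members, 4 were higher in Mgat1 cKO germ cells (Smcp, Odf1, Odf3 and Odf3l1) and 0 were lower. All 4 rose by more than 2-fold. The values are log2 RMA values, and a gene value is the mean of its probe sets. Genes were tested with limma over all 23152 genes and called at a Benjamini-Hochberg adjusted p under 0.05, which called 6.07% of all genes higher and 2.35% lower (8.41% in either direction). Past 2-fold as well, 2.53% of all genes were higher and 0.0346% lower. By limma at an unadjusted p under 0.05, 5 members were higher and 1 lower, against 9.55% and 14.5% of all genes. By analysis of variance with the same adjustment 4 were higher and 0 lower, against 4.58% and 1.68% of all genes. The median difference was 0.24 over the members and -0.05 over all genes. The 6 values did not overlap between genotypes in 6 of the members, 5 higher and 1 lower in Mgat1 cKO, against 11.2% and 20.1% of all genes.

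**Figure D1:**
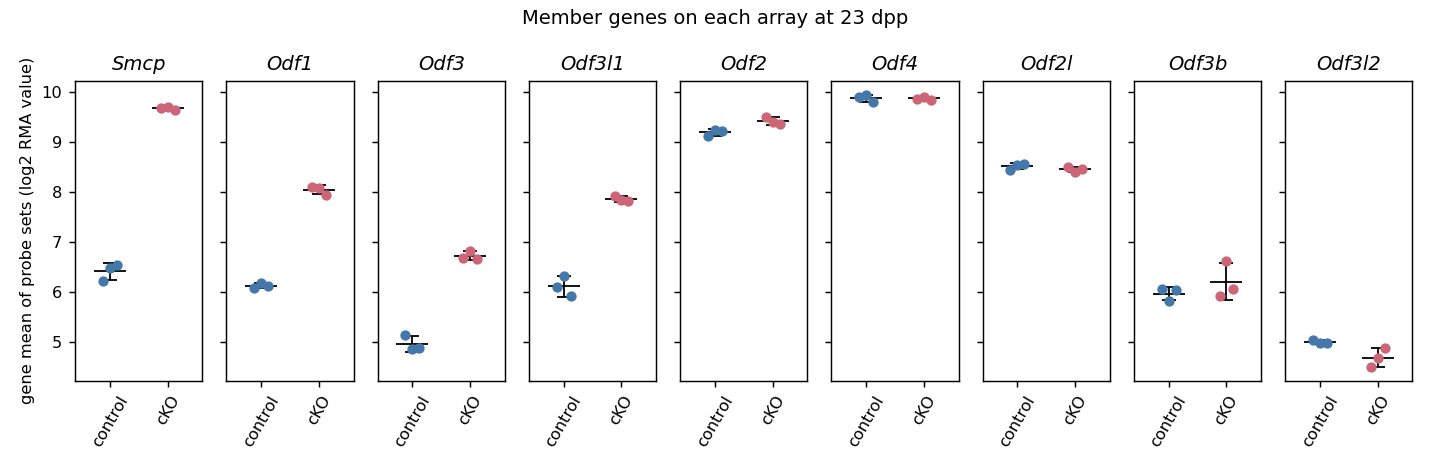
Gene value (mean of probe sets, log2 RMA value) of each member on the 3 control and 3 Mgat1 cKO arrays, 1 panel per gene on a common axis, with points for arrays, long bars for means and whiskers for 1 SD. In Smcp, Odf1, Odf3 and Odf3l1 the Mgat1 cKO arrays lie more than 1 log2 unit above the control arrays, whereas the other 5 members lie within 0.31 of the control mean on average.

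Smcp had the largest difference of the members and ranked 11 of 23152 genes by the size of its difference. Its log2 values were 6.22, 6.48 and 6.54 on the control arrays and 9.67, 9.70 and 9.64 on the Mgat1 cKO arrays. The groups were far apart, and the Mgat1 cKO arrays were closer to each other than the control arrays. Control averaged 6.42 ± 0.17 and Mgat1 cKO 9.67 ± 0.03 (SD, n = 3 per genotype), which is a rise of 3.25 on the log2 scale (SE 0.09, limma adjusted p = 2.9e-07) or 9.54-fold. All 3 probe sets of Smcp rose, by 3.78 in 17407423, by 3.04 in 17407424 and by 2.94 in 17407425. In 17407423 the control arrays gave 4.99, 5.64 and 5.92 and the Mgat1 cKO arrays 9.32, 9.35 and 9.21. The single exon-level probe sets of this gene therefore lay on the same side as its mean, with no array out of place.

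The genes whose centred profiles over the 6 arrays lay nearest to that of Smcp were Tmco2, Allc and Antxrl, at Euclidean distances of 0.09, 0.16 and 0.19 on the log2 scale. Tmco2 rose by 3.22, Allc by 3.29 and Antxrl by 3.14 (limma adjusted p of 4.8e-07 for Tmco2). With 3 arrays a genotype, such a distance ranks mainly by the size of the difference.

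Odf1, the small heat shock protein-like main component of the fibres, gave 6.09, 6.19 and 6.12 on the control arrays and 8.11, 8.09 and 7.94 on the Mgat1 cKO arrays. Its mean rose from 6.13 ± 0.05 to 8.04 ± 0.09 (SD, n = 3), a log2 difference of 1.91 (SE 0.07, limma adjusted p = 9.0e-07) or 3.76-fold. The groups did not overlap. Of its 4 probe sets 3 rose, by 2.91 in 17311149, by 2.77 in 17311150 and by 1.67 in 17311151. The remaining one, 17311148, was dim (mean under 5 over the 6 arrays), at 3.59 to 4.14, and its values overlapped between genotypes, with a difference of 0.29 (limma adjusted p = 0.46). In 17311149 the control arrays gave 7.56, 7.85 and 7.81 and the Mgat1 cKO arrays 10.71, 10.68 and 10.56. The difference in the gene mean of Odf1 is thus smaller than the differences in its 2 brightest probe sets.

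Odf3, a protein of the sperm tail shaft also known as Shippo1, gave 5.15, 4.88 and 4.88 on the control arrays and 6.69, 6.83 and 6.67 on the Mgat1 cKO arrays. Its mean rose from 4.97 ± 0.16 to 6.73 ± 0.08 (SD, n = 3), a log2 difference of 1.76 (SE 0.09, limma adjusted p = 6.1e-06) or 3.39-fold. All 3 Mgat1 cKO arrays were above all control arrays. Of the 11 probe sets of Odf3, 7 rose and 4 did not pass the test, and all 11 means were higher in Mgat1 cKO. In 17484620, the highest, the control arrays gave 5.79, 6.29 and 5.27 and the Mgat1 cKO arrays 9.77, 9.73 and 9.65, a difference of 3.93 (limma adjusted p = 0.0011). The lowest, 17484617, went from 2.72 to 2.84 (limma adjusted p = 0.88), and its arrays overlapped. It was 1 of 3 dim probe sets of Odf3, which lay between 2.49 and 4.74 on all arrays.

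Odf3l1, a relative of Odf3, gave 6.11, 6.33 and 5.92 on the control arrays and 7.93, 7.84 and 7.81 on the Mgat1 cKO arrays. Its mean rose from 6.12 ± 0.21 to 7.86 ± 0.06 (SD, n = 3), a log2 difference of 1.74 (SE 0.10, limma adjusted p = 1.3e-05) or 3.33-fold. The groups did not overlap, and the spread was wider in control. Of its 6 probe sets 5 rose, by up to 2.74 in 17527457, and the lowest, 17527454, went from 4.34 to 4.53 (limma adjusted p = 0.69).

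**Figure D2:**
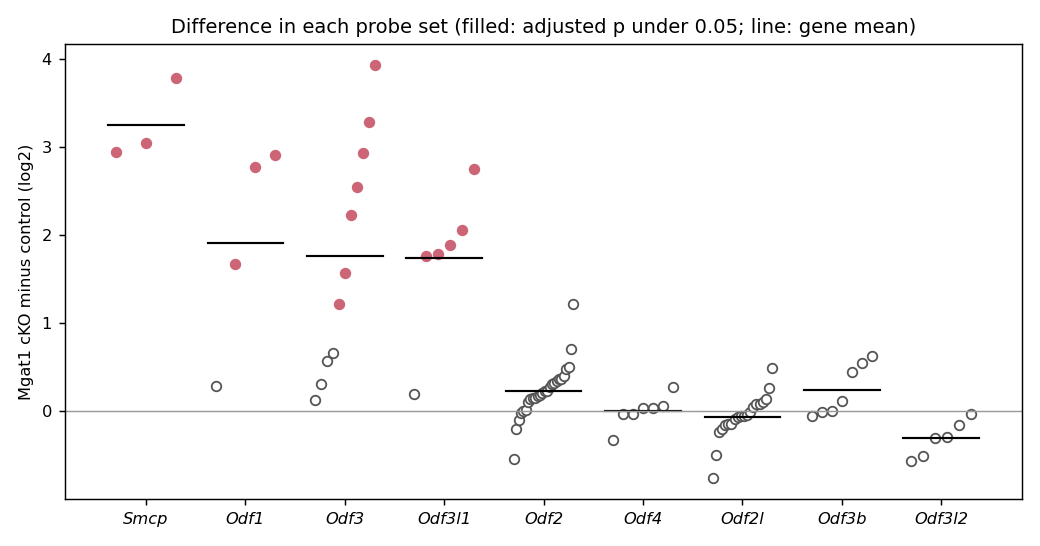
Difference of means (Mgat1 cKO minus control, log2) of each of the 90 member probe sets, grouped by gene, with filled points at an adjusted p under 0.05 over all probe sets and a line at the gene mean. All 18 filled points belong to Smcp, Odf1, Odf3 and Odf3l1, and the lowest point of Odf1, Odf3 and Odf3l1 lies at 0.29, 0.12 and 0.19.

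Over all 90 member probe sets, 18 were higher in Mgat1 cKO and 0 lower by limma over all 269751 probe sets, which called 1.87% of them higher and 0.18% lower. At an unadjusted p under 0.05, 26 were higher and 2 lower, against 6.25% and 5.98% of all probe sets. The 18 lay in the 4 genes that rose, which have 24 probe sets together, and 0 lay among the 66 probe sets of the other 5 members. Of these 66, 7 were higher and 2 lower at an unadjusted p under 0.05, where the same shares of all probe sets apply. The arrays did not overlap in 36 member probe sets that were higher and 5 that were lower, against 8.66% and 10.8% of all probe sets. Probe sets of a gene share the same RNA and are not replicates. A gene value is the mean of its probe sets, so finding called probe sets only in called genes is not a separate result.

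The difference between genotypes was not the same in every probe set of Odf1, Odf3 and Odf3l1. With limma's diffSplice F test, which asks whether the probe sets of a gene differ from each other in their change, the adjusted p was 1.2e-09 for Odf1, 2.8e-14 for Odf3 and 3.0e-06 for Odf3l1. This test called 7.44% of 20833 genes, and in simulated data it called unchanged genes too readily. A stricter test, chosen after these results had been seen, set each probe set against the mean of the others of its gene and called 1.76% of genes. It gave adjusted p-values of 0.010 for Odf1, 0.013 for Odf3 and 0.014 for Odf3l1. Smcp had an adjusted p of 0.075 by diffSplice. In each of these 3 genes the probe set with the smallest difference was dim. Dimness was set by the mean over both genotypes, so a probe set that rises can leave the dim ones through its Mgat1 cKO values. Without dim probe sets diffSplice called Odf1, Odf2 and Odf3 but not Odf3l1.

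**Figure D3:**
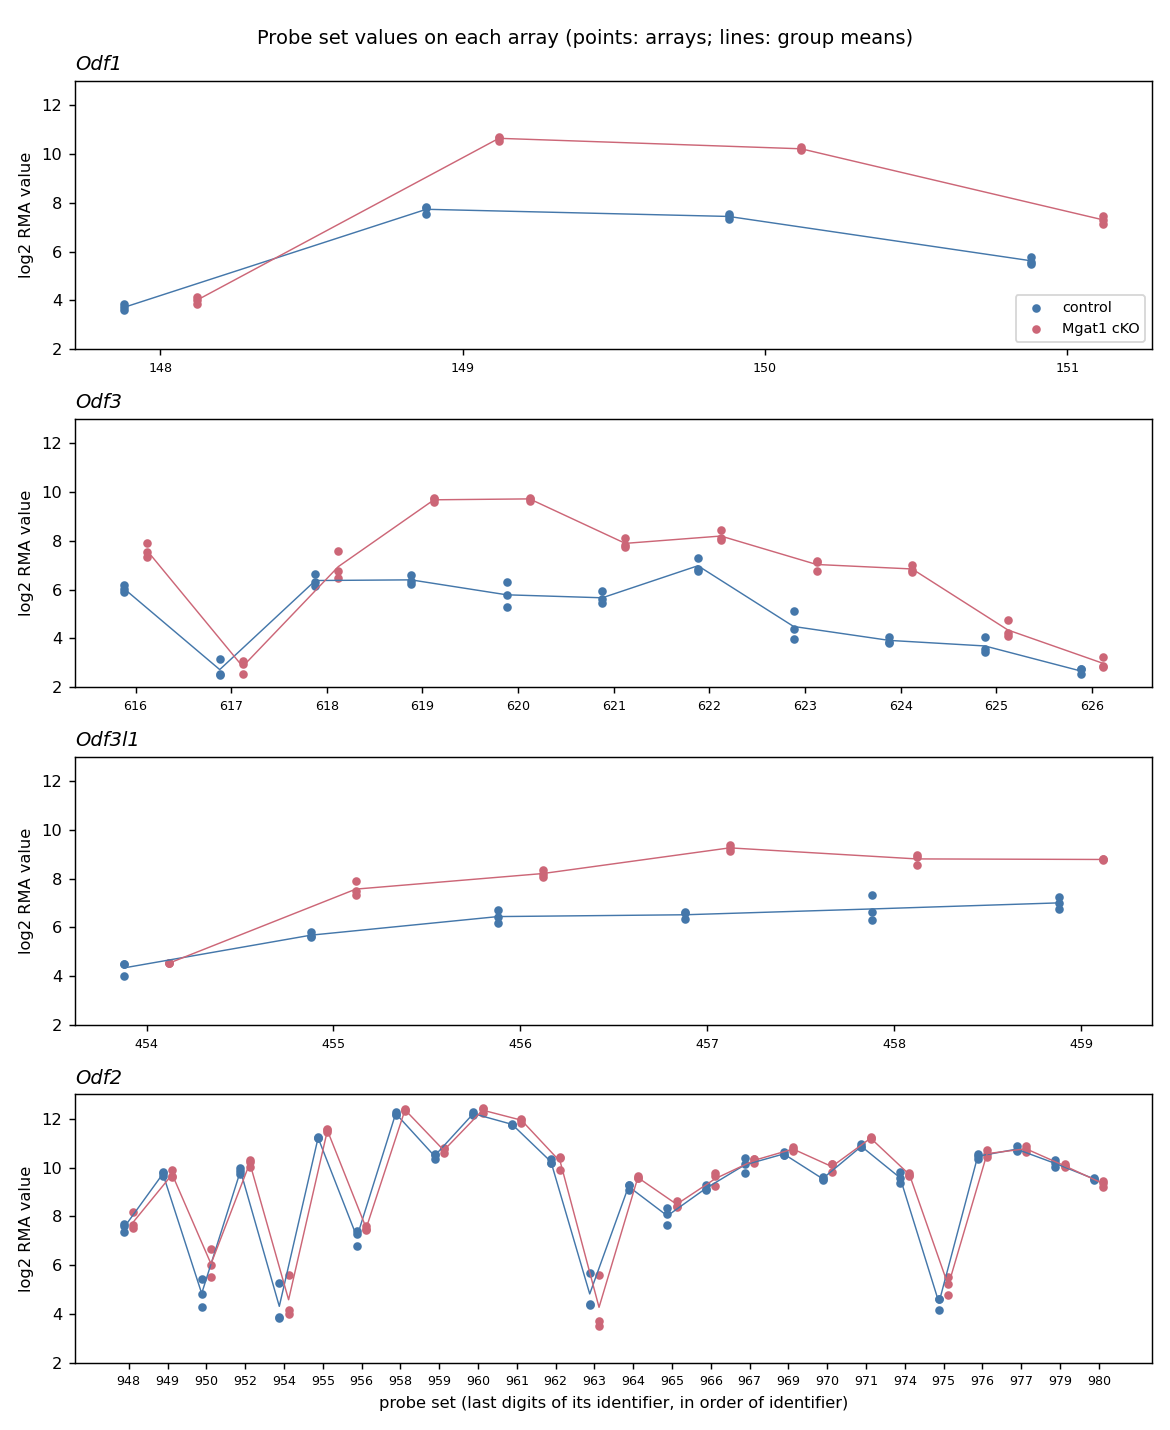
Log2 RMA value of each probe set of Odf1, Odf3, Odf3l1 and Odf2 on each array, in order of identifier, with points for arrays and lines joining the group means. In the first 3 genes most probe sets lie clearly apart between genotypes, and in Odf2 22 of the 26 means are higher in Mgat1 cKO and 4 lower, from -0.55 in 17368963 to 1.21 in 17368950.

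Odf2, a scaffold protein of the fibres that also serves in the appendages of the mother centriole, did not pass the test. Its values were 9.12, 9.24 and 9.21 on the control arrays and 9.50, 9.40 and 9.35 on the Mgat1 cKO arrays. The arrays did not overlap, with all 3 Mgat1 cKO arrays higher. The means were 9.19 ± 0.06 and 9.42 ± 0.08 (SD, n = 3), a difference of 0.23 (SE 0.07, 95% interval 0.07 to 0.39, limma adjusted p = 0.092). With an intensity trend in limma's estimate of the spread, the adjusted p was 0.011. Of its 26 probe sets, 22 had a higher and 4 a lower mean in Mgat1 cKO, and 0 were called. Their differences ran from -0.55 in 17368963 to 1.21 in 17368950, and both of these probe sets averaged under 5 in control and spread widely between arrays. By the mean over the 6 arrays 17368963 was dim but 17368950 was not, so 17368950 stayed in when dim probe sets were left out. The diffSplice adjusted p of Odf2 was 0.37, and Odf2 was called without dim probe sets or without Mgat1 cKO replicate 2.

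Odf4, a protein of the sperm tail, gave 9.89, 9.93 and 9.79 on the control arrays and 9.86, 9.90 and 9.84 on the Mgat1 cKO arrays. These gene values overlapped between genotypes. The means were 9.87 ± 0.07 and 9.87 ± 0.03 (SD, n = 3), and the 95% interval of the difference ran from -0.15 to 0.15 (limma adjusted p = 0.99). Its 7 probe sets differed by -0.33 in 17264442 to 0.28 in 17264447. In 17264442 all 3 Mgat1 cKO arrays lay below the control arrays (limma adjusted p = 0.43). A difference as large as that of Odf3l1, the smallest among the members that rose, lay outside the interval of the Odf4 gene value.

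Odf2l, a relative of Odf2 found at basal bodies and centriolar satellites, gave 8.45, 8.53 and 8.56 on the control arrays and 8.50, 8.39 and 8.46 on the Mgat1 cKO arrays, which overlapped. The difference was -0.06 (SE 0.06, 95% interval -0.21 to 0.09, limma adjusted p = 0.59). Among its 20 probe sets the differences ran from -0.76 in 17403362 to 0.49 in 17403341, and 0 were called. In 17403362 the control arrays gave 8.63, 8.60 and 8.70 and the Mgat1 cKO arrays 8.02, 8.04 and 7.58 (limma adjusted p = 0.093), without overlap.

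Odf3b and Odf3l2, the other relatives of Odf3, did not pass the test. Odf3b gave 6.06, 5.82 and 6.04 on the control arrays and 5.93, 6.63 and 6.07 on the Mgat1 cKO arrays. The highest Mgat1 cKO array stood apart from the rest, the next lay just above the control arrays, and the lowest lay among them. The difference of Odf3b was 0.24 (SE 0.17, 95% interval -0.16 to 0.63, limma adjusted p = 0.44), and its 7 probe sets differed by -0.06 in 17320492 to 0.62 in 17320490. Odf3l2 gave 5.06, 4.98 and 4.99 on the control arrays and 4.52, 4.69 and 4.89 on the Mgat1 cKO arrays, all of them below control. Its difference was -0.31 (SE 0.10, 95% interval -0.53 to -0.09, limma adjusted p = 0.098), and it was called lower only without Mgat1 cKO replicate 3 (-0.41, adjusted p = 0.028). All 6 probe sets of Odf3l2 had a lower mean, from -0.56 in 17242646 to -0.04 in 17242648, and 4 of the 6 were dim.

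Genes whose products bind or build the same structures were counted with the same limma test. Limma called 6.07% of all genes higher and 2.35% lower, and the median difference over all genes was -0.05. Past 2-fold as well, 2.53% of all genes were higher and 0.0346% lower, and by analysis of variance 4.58% and 1.68%. Of 6 partners of the outer dense fibres, 3 were higher and 0 lower, with a median difference of 0.87. Their counts were the same past 2-fold and by analysis of variance. Oaz3, a testis antizyme needed in mice to keep head and tail of the sperm together, rose by 2.28, and Tssk4, a spermatid kinase that binds Odf2, rose by 1.77. Klc3, a kinesin light chain that binds Odf1 in the rat, differed by 0.04, and Ccdc42, needed for the sperm tail, by 0.06. Of 11 genes of the mitochondrial sheath, 6 were higher and 0 lower, with a median of 0.29. Of these 11, 4 were higher past 2-fold and 4 by analysis of variance, with 0 lower by either. Tbc1d21 and Spata19, both needed for the sheath in mice, rose by 3.38 and 3.22, beside Smcp at 3.25. The mitochondrial channels Vdac3 and Vdac2 differed by -0.0015 and 0.02.

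Of 13 genes of the fibrous sheath, which surrounds the fibres in the principal piece, 8 were higher and 0 lower, with a median of 1.97. Of these 13, 7 were higher past 2-fold and 7 by analysis of variance, with 0 lower by either. The spermatid glycolytic enzyme Gapdhs rose by 2.99 and the ropporin Ropn1 by 2.65, whereas Ropn1l differed by 0.07 and Gstm5 by -0.08. Of 20 genes whose proteins lie in or on axonemal microtubules, 11 were higher and 0 lower, with a median of 0.32. Of these 20, 5 were higher past 2-fold and 10 by analysis of variance, with 0 lower by either. Saxo1 (Fam154a in the array annotation) rose by 2.99 and Tex43 (1700065I17Rik) by 2.21, and Cfap161 (1700026D08Rik) and Cfap20 (Gtl3) differed by -0.02 and -0.04.

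The 13 genes of the centriole appendages, the other site of Odf2, stood at 0 higher and 0 lower by limma, with 1 higher and 3 lower at an unadjusted p under 0.05 and 0 of either by analysis of variance. Over all genes the unadjusted shares were 9.55% higher and 14.5% lower. Their median difference was -0.08. The largest differences were 0.27 in Sclt1 (limma adjusted p = 0.076) and -0.26 in Ninl (0.11), and the smallest were 0.00 in Dctn1 and -0.01 in Cep164. These lists were described by their counts and medians only, and no test of a list was made.

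**Figure D4:**
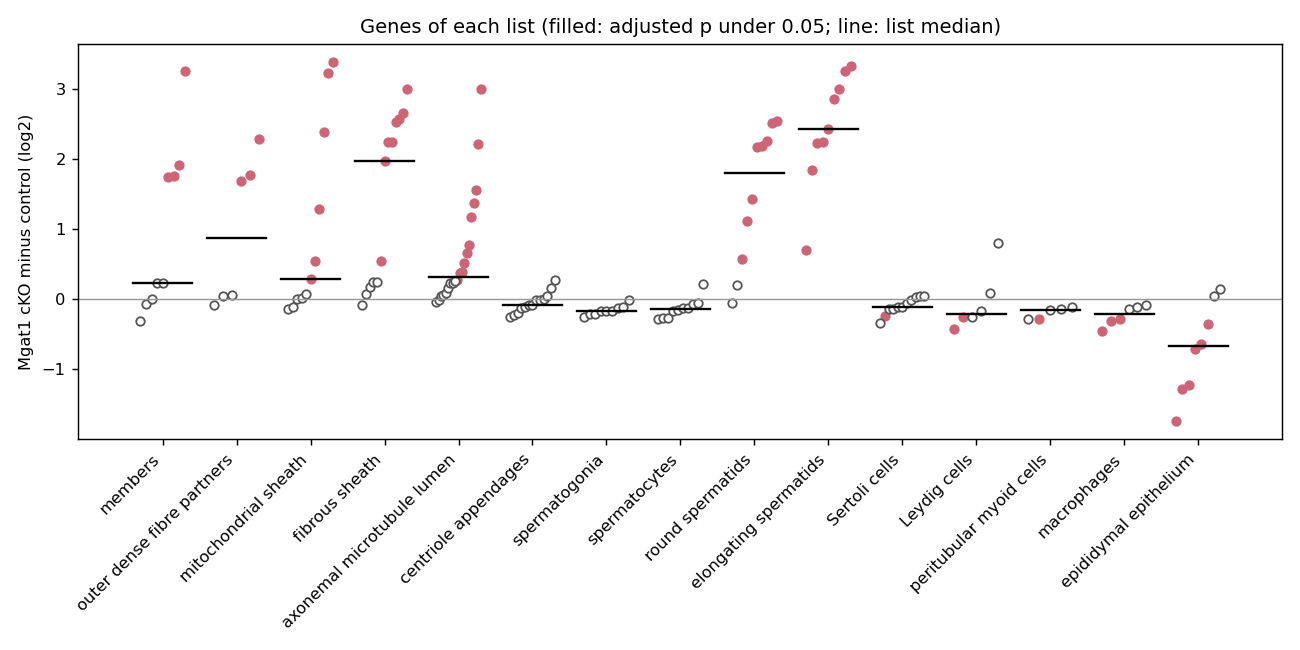
Difference of gene means (Mgat1 cKO minus control, log2) of the members, of 5 lists of structural genes and of markers of 9 cell types, with 1 point per gene, filled at an adjusted p under 0.05, and a line at each list's median. The medians are 0.24 for the members, 1.97 for the fibrous sheath, 2.42 for elongating spermatids and -0.14 for spermatocytes.

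Markers of spermatids moved with the members that rose. For comparison, 6.07% of all genes were higher and 2.35% lower by limma, with a median difference of -0.05. All 9 of 9 markers of elongating spermatids were higher (median 2.42), and their summed level, as linear RMA values, was 875 to 899.7 on the control arrays and 4239 to 4403 on the Mgat1 cKO arrays. Of 10 markers of round spermatids, 8 were higher and 0 lower (median 1.80), with sums of 2781 to 2857 and 4785 to 5001. The 2 markers not called, Acr and Spag6, had the highest control means of this list (log2 values of 9.91 and 9.98). They weigh most in these sums, which therefore do not measure the rise of the other 8. Akap4 and Gapdhs stand in both the elongating spermatid and the fibrous sheath list. For 9 markers of spermatogonia and 10 of spermatocytes limma gave 0 higher and 0 lower, with medians of -0.17 and -0.14. At an unadjusted p under 0.05, 0 spermatogonial markers were higher and 4 lower, and 1 spermatocyte marker was higher and 3 lower, against 9.55% and 14.5% of all genes. Analysis of variance gave 1 lower spermatogonial and 1 higher spermatocyte marker. The part of the spermatid markers in the rise of the members was not tested, and in such bulk samples more cells of a type and more RNA per cell cannot be told apart.

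Markers of other cells were also present on the arrays. Lower in Mgat1 cKO were 1 of 11 markers of Sertoli cells, 2 of 6 of Leydig cells, 1 of 5 of myoid cells, 3 of 6 of macrophages and 6 of 8 of the epididymis, and 0 of these lists had a higher member, by limma. By analysis of variance the lower markers were 3 of Sertoli cells, 1 of Leydig cells, 1 of myoid cells, 1 of macrophages and 5 of the epididymis. At an unadjusted p under 0.05 they were 3, 4, 3, 3 and 6 in the same order, and 1 Leydig cell marker was higher. Of all genes, 2.35% were lower by limma and 1.68% by analysis of variance. At an unadjusted p under 0.05, 14.5% of all genes were lower and 9.55% higher. The sums of the Sertoli list were 6809 to 6930 in control and 6369 to 6469 in Mgat1 cKO, and those of the epididymal list 977 to 1029 and 721 to 769. Crisp1, not called and higher on all 3 Mgat1 cKO arrays, had the highest means of the epididymal list (log2 values of 8.64 and 8.78). It weighs most in these sums, which therefore do not measure the fall of the 6 called markers. The median difference of this list was -0.67, and 3 of its markers fell by more than 2-fold, against 0.0346% of all genes. The part of these cell type markers in the members' differences was not tested. The targeted gene Mgat1 gave a mean of 6.31 ± 0.13 in control and 6.30 ± 0.18 in Mgat1 cKO (SD, n = 3, limma adjusted p = 0.94), and 1 of its 12 probe sets fell, by -1.01 in 17248953 (adjusted p = 0.037). Which of them lie in the deleted part was not analysed here, so the gene mean is no check of the labels.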

How the data were processed

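Germ cell RNA of 23 dpp males was measured on 3 control and 3 Mgat1 cKO arrays. The authors made the deposited log2 values with RMA in Affymetrix Expression Console (version not given in the sources used here), at the level of exons, and they were used as deposited, with array medians of 6.85 to 6.87. Probe sets with exactly 1 symbol (233753) were averaged per gene. Genes and probe sets were tested separately with limma 3.58.1 (lmFit, eBayes) under R 4.3.3. P-values were adjusted by Benjamini-Hochberg across all features, with a threshold of 0.05. The methods' analysis of variance was an alternative. Intervals are 95% limma intervals. Plots were made in Python 3.11.15 (matplotlib 3.10.9).

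The members and gene lists were chosen with earlier results of these data known. Named were all members, per list the 2 largest and 2 smallest absolute differences, the 3 genes nearest to Smcp, and per member the highest and lowest probe set, beside a few more probe sets and genes chosen after their values were seen. The number of arrays limits the precision.

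The steps were tested on simulated data. In the first simulation the stricter test within genes called none of the genes with 1 changed probe set, while diffSplice called most of them together with unchanged genes. A second simulation with larger changes in more genes was added after that, and there the stricter test recovered most of them. Of 5 promoter motifs searched, all are reported.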

Additional observations from a re-analysis of the deposited data

How the results depend on the processing

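Smcp, Odf1, Odf3 and Odf3l1 were called higher and no other member was called in every alternative, except that the intensity trend added Odf2 (difference 0.23, adjusted p = 0.011, 5 members higher) and that leaving out Mgat1 cKO replicate 3 called Odf3l2 lower. Without each array in turn, 0 to 1 members were lower, and the difference of Odf3l2 ran from -0.41 to -0.22. The number of called genes moved more than the members did. Against 543 lower genes, the trend gave 1385, the replicate block 208, the 2-fold threshold 8, medians of probe sets 135, and single arrays left out 181 to 324. Against 1405 higher genes, the 2-fold threshold gave 586 and single arrays left out 1148 to 1228. Array numbers did not pair the samples (correlations of same-numbered arrays' deviations of -0.02, -0.06 and -0.02). With the replicate block the same 4 members were called, with 13 in place of 18 probe sets. The filter on dim probe sets uses the mean over both genotypes and so can keep probe sets because they rose, so its differences for the members that rose are not comparable. The diffSplice calls changed more. Without dim probe sets they were Odf1, Odf2 and Odf3, without control replicate 2 Odf4 was added, without control replicate 3 Smcp, and without Mgat1 cKO replicate 2 Odf2. The cause of these changes was not tested.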
